A study of Mus musculus with 33 samples.

Results

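Mammary tumors of PTHrP KO mice at week 8, the age at which the study placed hyperplasia in this genotype, were compared with tumor-free mammary glands of PTHrP KO mice of the same age. The comparison rests on 5 of the 33 RNAseq libraries of the series, 3 of KO tumors and 2 of KO glands, and covers 36527 genes. Samples were chosen by their labels alone. All 5 mice were Pthrp flox/flox; Cre+; mTmG, and the 3 tumor mice also carried PyMT-MMTV. The loss of PTHrP is therefore shared by both groups, and the oncogene is what separates them. Both Cre and the polyoma middle T oncogene (PyMT) are driven by the MMTV promoter, which is active in mammary epithelium. Cre deletes the floxed part of Pthlh (named Pthrp in the labels) and switches the mTmG reporter from membrane Tomato to membrane GFP. Cells were cultured over days in medium with serum before GFP+ cells were sorted, so the libraries describe sorted and cultured cells rather than whole tissue, with 1 library per mouse.

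PTHrP is a secreted protein that acts on neighbouring cells through its receptor PTH1R and cyclic AMP. It is needed for the mammary bud to develop further in the embryo, and tumor cells release it in the hypercalcemia of malignancy. The mammary epithelium has a luminal layer, which makes milk, and a basal or myoepithelial layer, which contracts and rests on the basement membrane. Polyoma middle T binds Src, PI3K and Shc at the membrane and drives luminal hyperplasia that goes on to carcinoma.

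The 5 libraries held between 28419983 and 80187304 counted reads on genes and between 23922 and 32450 genes with at least 1 read. PyMT reads numbered 440 to 732 in the tumors and 0 in both glands, as the labels have it. EGFP reads numbered 16344 to 52646 in all 5 libraries, and reads of Tomato, the reporter that Cre removes, numbered 3359 to 11503 in the same 5. The source of the Tomato reads was not tested. Reads on ribosomal RNA (rRNA) genes made up 0.00572% of the reads in KO tumor 1, 12.0% in KO tumor 2, 3.62% in KO tumor 3, 0.0224% in KO gland 1 and 15.7% in KO gland 2. The rRNA share thus split each group, with tumor 1 and gland 1 low and the other 3 high. The mean log10 share in glands minus that in tumors was -0.0254 (exact permutation test over the 10 assignments, two-sided, p = 0.8, where the smallest possible p is 0.2). The rows CT010467.1, Lars2, Gm15564 and Mir6236, which follow the rRNA share, held 0.00639% to 20.2% of the reads, and none of them was among the genes called different. The luminal markers Krt8, Krt18, Krt19, Krt7, Epcam, Cldn3, Cldn7, Elf5, Esr1 and Prlr had reads in every library and summed to 7200 to 9100 CPM (reads per 1000000 reads of the scaled library size) in tumors and 7630 to 8120 CPM in glands. The 10 basal markers summed to 4980, 1970 and 1500 CPM in tumors 1, 2 and 3 and to 10800 and 7990 CPM in glands 1 and 2. Endothelial markers summed to 2.21 to 4.06 CPM and erythroid markers to 0.131 to 0.458 CPM over the 5 libraries. Lymphocyte markers summed to 2.89, 1.64 and 0.771 CPM in tumors and 7.38 and 4.38 CPM in glands, with no DEG among them. Of these, Trbc2 alone was at 2.38, 1.11 and 0.434 CPM in tumors and 6.95 and 3.99 CPM in glands.

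**Figure D1:**
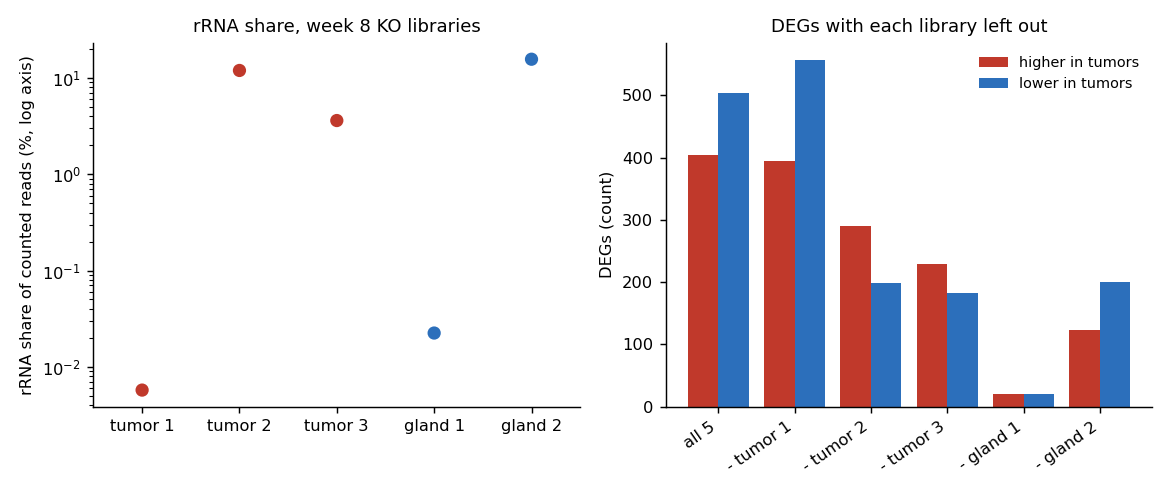
The left panel plots the rRNA share of counted reads (percent, log axis) of each week 8 KO library, 1 point per library, with tumor 1 and gland 1 under 0.1% and the other 3 over 1%. The right panel plots the number of genes called higher and lower in tumors with all 5 libraries and with each library left out, from 405 higher and 504 lower down to 21 higher and 20 lower without gland 1.

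A differentially expressed gene (DEG) had to pass a fold change of 1.5 together with an adjusted p of 0.1 (Benjamini-Hochberg, edgeR's quasi-likelihood test). There were 909 DEGs, 405 higher and 504 lower in KO tumors than in KO glands, which is 2.49% of the genes tested, or 1.11% higher and 1.38% lower. At a fold change over 2 there were 710 DEGs (1.94% of genes), 299 higher (0.819%) and 411 lower (1.13%). Of the 909 DEGs, 824 were protein-coding genes and 23 were lincRNAs, of which 17 were higher. All 3 tumors lay above or below both glands for 906 DEGs, where 15.0% of all genes tested had every tumor above and 12.5% every tumor below. The number of DEGs depended on single libraries. It was 952 without tumor 1, 490 without tumor 2, 411 without tumor 3, 41 without gland 1 and 323 without gland 2, and leaving out a gland leaves 1 gland that is taken to vary as the other groups do. Of the 153 genes followed across settings, 140 were DEGs. The call was lost without gland 1 for 131 of these, without gland 2 for 84, without tumor 3 for 68, without tumor 2 for 57 and without tumor 1 for 24.

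Genes are described by 35 lists of pathways, and 114 DEGs were in at least 1 list. The median log2 fold change over all genes tested was 0.04, and 52.9% of genes had a positive value. In bulk RNA, fewer cells of a type and less RNA of that type per cell cannot be told apart.

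**Figure D2:**
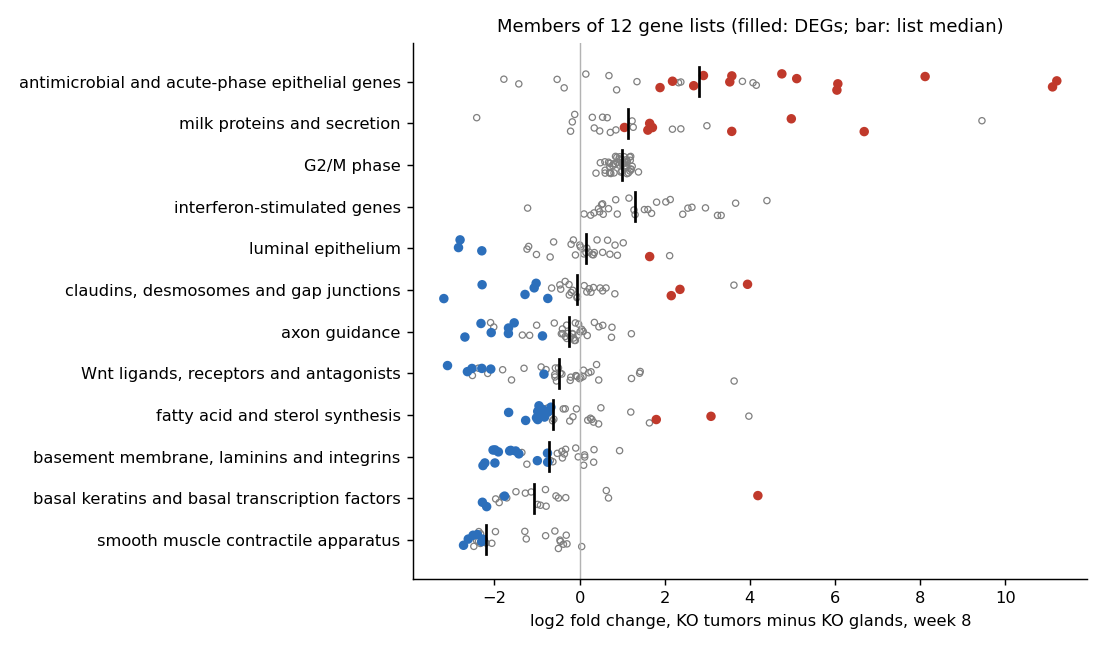
Each point is a member of 1 of 12 gene lists at its log2 fold change, KO tumors minus KO glands of week 8, with DEGs filled and a bar at the list median. The acute-phase list lies furthest to the right with a median of 2.79, the smooth muscle list furthest to the left with a median of -2.20, and the 45 genes of the G2/M list are all above 0 with no filled point.

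Genes of the antimicrobial and acute-phase response rose in the KO tumors and held the 3 largest rises among protein-coding genes with at least 5 CPM. Mammary epithelium secretes several of these proteins at mucosal surfaces, and liver cells secrete others during inflammation. Of 26 genes listed and tested, 13 rose and none fell, against 1.11% of all genes called higher. The list median was a log2 fold change of 2.79, or 2.53 with a gene without gland reads set at its lower bound, and 18 of the 26 had every tumor above both glands, as did 15.0% of all genes. The called genes numbered 2 without gland 1 and 6 without gland 2, and were 11 to 13 when 1 tumor was left out.

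The serum amyloid A genes Saa1, Saa2 and Saa3 lie in 1 cluster on chromosome 7 and encode apolipoproteins of the acute phase. Saa1 (chr7:46740497-46742980, minus strand, GRCm38) was at 798, 333 and 364 CPM in tumors 1, 2 and 3 and at 0.0982 and 0.433 CPM in glands 1 and 2. The glands held only 5 and 9 Saa1 reads, so the lowest tumor was 768-fold above the highest gland, and the log2 fold change was 11.21 (SE 1.39, adjusted p = 0.000277). Saa2 was at 351, 141 and 170 CPM in tumors and at 0.0982 and 0.0962 CPM in glands, with a log2 fold change of 11.11 (SE 1.48, adjusted p = 0.000513). Saa1 and Saa2 were the only DEGs among the 140 followed that stayed DEGs in every setting run. Saa1 and Saa2 are near-identical copies, and reads could be split between them in an uncertain way. Saa3 was at 118, 54.6 and 28.6 CPM in tumors and at 0.216 and 0.289 CPM in glands, again without overlap (log2 fold change 8.12, SE 2.03, adjusted p = 0.0369).

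The promoters of Saa1 and Saa2, taken from 250 bases before to 50 bases after the gene start in RefSeq (GRCm38.p6), were identical at 287 of 299 aligned bases (96.0%). The stretch below is shown because it holds 5 of the 12 mismatches, which are in capitals. Both are written 5′ to 3′ on the strand of the gene, at chr7:46743191-46743220 (minus strand) for Saa1 and chr7:46751592-46751621 (plus strand) for Saa2.
Saa1: caggctactaTGccccagaagaCtgcTacA
Saa2: caggctactaCAccccagaagaTtgcCacC

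C/EBP factors are regulators of acute-phase genes in the liver, so the promoter windows were searched for the core TTNNGCAA on both strands. It was found in 11 of the 21 acute-phase genes with a window (52.4%) and in 12.2% of all 27025 genes with one. Of the 11, 5 were DEGs and 6 did not pass the test, in a list of 26 genes with 13 DEGs. The 5 stretches printed are those of the DEGs, with the core in capitals and 5′ to 3′ on the strand of the gene. They lie at chr7:46743143-46743172 (minus strand) for Saa1, chr7:46751640-46751669 (plus strand) for Saa2, chr7:46715756-46715785 (minus strand) for Saa3, chr2:32387936-32387965 (minus strand) for Lcn2 and chr4:63362319-63362348 (plus strand) for Orm2.
Saa1: tgtgctcccaTTGCACAAtgagggagaatg
Saa2: tgtgctcccaTTGCACAAtgagggaaaatg
Saa3: gtaagtgggaTTATGCAAgatcaaacaggg
Lcn2: gcccttcctgTTGCTCAAccttgcacagtt
Orm2: agagaacattTTGCGCAAgacatttcccaa
The first printed base is at -192, -193, -109, -226 and -130 from the gene start in this order. The core occurs in Saa1 and Saa2 as the same 8 letters. A second spelling, TTNNGNAAT, overlaps the printed core in Saa1 and Saa2 and was present in 10 of the 21 windows (47.6%) against 13.1% of all genes. An NF-kB site was present in 2 of the 21 (9.52%) against 5.14%. Of 7 patterns searched in all lists, each match is a description of the letters in the window and not a site of binding.

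Other genes of this group that rose were lower than Saa1 in the tumors or already expressed in the glands. Lcn2, which encodes the iron-scavenging lipocalin NGAL, was at 3069, 2480 and 2225 CPM in tumors and 474 and 668 CPM in glands. The lowest tumor was 3.33-fold above the highest gland, and the log2 fold change was 2.18 (SE 0.35, adjusted p = 0.00237). Chil1, a chitinase-like secreted protein, was at 3376, 1626 and 1203 CPM in tumors against 266 and 285 CPM in glands (log2 fold change 2.91, adjusted p = 0.0129). Lrg1, a leucine-rich secreted glycoprotein, was at 22.4, 19 and 27.4 CPM in tumors against 0.314 and 0.385 CPM in glands (log2 fold change 6.07, adjusted p = 0.0110). The tumors differed up to 1.44-fold among themselves for Lrg1 and up to 2.81-fold for Chil1. The acid glycoprotein genes Orm1 and Orm2, which are also near-identical copies, had log2 fold changes of 4.75 and 5.10 (adjusted p = 0.00266 and 0.00204). Lbp, which carries bacterial lipopolysaccharide, was at 88.5, 151 and 139 CPM in tumors and 19.3 and 20.2 CPM in glands (adjusted p = 0.0313). Complement factor B (Cfb, log2 fold change 3.58), S100a8 (3.53) and Wfdc18 (1.89) also rose. Pigr, which carries polymeric immunoglobulin across epithelia, was at 1.84, 3.61 and 38.6 CPM in tumors and 0.236 and 0.192 CPM in glands. Its log2 fold change of 6.04 (adjusted p = 0.0157) was carried mostly by tumor 3, and without that library it was 3.61 (adjusted p = 0.108). Ltf, which encodes lactoferrin, had a log2 fold change of 2.38 (adjusted p = 0.174), C3 of 0.69 (0.432), Slpi of -0.53 (0.649) and S100a9 of -1.43 (0.720), and these 4 were not DEGs. S100a8 and S100a9 encode the subunits of 1 complex in neutrophils, and S100a9 was at 0.0420 to 0.275 CPM in the 5 libraries while S100a8 was at 27.6 to 58.0 CPM in tumors. The 10 macrophage markers summed to 202, 256 and 194 CPM in tumors and 108 and 151 CPM in glands, with no DEG among them. At an unadjusted p under 0.05 there were 3 of the 10 (10.6% of all genes), and DESeq2 called 2 higher. Cd14 made up most of that sum, and the other 9 markers summed to 8.17, 10.7 and 11.2 CPM in tumors and 6.69 and 9.09 CPM in glands. C1qa had 37, 23 and 8 reads in tumors, C1qb had 24, 18 and 4, and both had 0 in each gland. The part of macrophages in these rises was not tested.

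**Figure D3:**
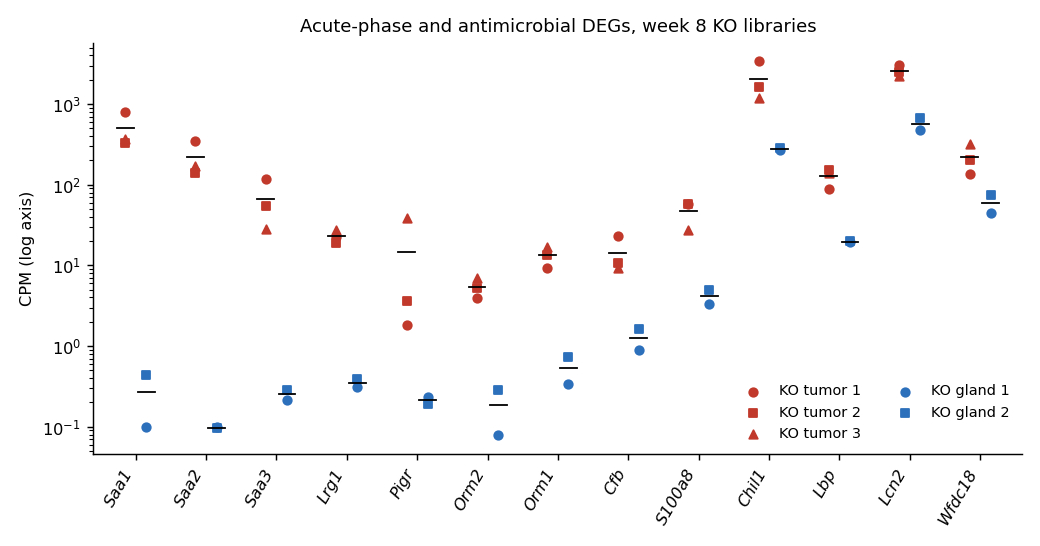
CPM values (log axis) of the DEGs of the acute-phase list in each of the 3 KO tumors and 2 KO glands of week 8, with 1 point per library and a black bar at each group mean. The tumors lie above the glands for each DEG shown, by 768-fold from the highest gland to the lowest tumor for Saa1 and by 3.33-fold for Lcn2.

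Milk genes also rose in part. Of 24 genes of milk proteins and secretion that were tested, 7 rose and none fell, against 1.11% of all genes called higher. Tumor 3 was the highest library for 16 of the 24. The list median was 1.14, and the called number was 6 without tumor 1, 4 without tumor 2, 3 without tumor 3, 1 without gland 1 and 1 without gland 2. Csn3 (chr5:87925579-87932665, plus strand), which encodes the kappa-casein that coats casein micelles, was at 307, 281 and 353 CPM in tumors and 26.4 and 26.2 CPM in glands. The libraries of each group lay close together, and Csn3 rose 11.9-fold (log2 fold change 3.57, SE 0.53, adjusted p = 0.00152). Lalba, the lactose synthase cofactor alpha-lactalbumin, was at 1.40, 7.14 and 22.4 CPM in tumors and 0.0982 and 0.0962 CPM in glands (log2 fold change 6.69, SE 1.52, adjusted p = 0.0236). The tumors differed up to 16-fold among themselves for Lalba, and the lowest was 14.3-fold above the highest gland. Cel, a milk lipase, had a log2 fold change of 4.97 (adjusted p = 0.0285). Plin2, which coats milk fat droplets, was at 1325, 1014 and 983 CPM in tumors and 447 and 620 CPM in glands (log2 fold change 1.05, adjusted p = 0.0376). Elf5, the transcription factor of luminal progenitors and alveolar cells, was at 40.9, 80.4 and 80.8 CPM in tumors and 19.6 and 23.5 CPM in glands (log2 fold change 1.65, adjusted p = 0.0559). Muc15 (1.71) and Folr1 (1.60) were the remaining DEGs of the list. Other caseins were not DEGs: Csn2, beta-casein, was at 0.844, 2.08 and 4.10 CPM in tumors and 0.137 and 0.529 CPM in glands (adjusted p = 0.556), and Csn1s1 had a log2 fold change of 0.85 (adjusted p = 0.783). Wap, the whey acidic protein, had 9, 29 and 178 reads in tumors and 0 in both glands, which is at least 29.8-fold higher against a floor of 3 reads over both glands together, and was not a DEG (adjusted p = 0.268). The STAT5 pattern TTCNNNGAA was in the promoter window of 5 of 17 milk genes (29.4%) and of 9.55% of all genes.

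In the luminal list, 1 of 29 genes tested rose (Elf5) and 3 fell (Foxa1, Pgr and Wnt4), with a median of 0.15, where 1.11% of all genes were called higher and 1.38% lower. Foxa1, the pioneer factor of estrogen receptor binding, was at 1.39, 3.74 and 2.46 CPM in tumors and 23 and 13.0 CPM in glands. Every tumor was below both glands (log2 fold change -2.84, SE 0.50, adjusted p = 0.00460). Pgr, the progesterone receptor, was at 0.678, 1.49 and 0.771 CPM in tumors and 8.80 and 4.67 CPM in glands (log2 fold change -2.81, adjusted p = 0.0840). Wnt4, which progesterone induces in the gland, was at 4.47, 3.78 and 2.94 CPM in tumors and 23.3 and 13.3 CPM in glands (log2 fold change -2.30, adjusted p = 0.00278). Esr1, the estrogen receptor, had a log2 fold change of -1.23 (adjusted p = 0.381) and Prlr, the prolactin receptor, of 0.41 (adjusted p = 0.865), and neither was a DEG. The luminal keratin Krt8 was at 2206 to 3213 CPM in tumors and 2345 and 2835 CPM in glands, so these groups overlapped (log2 fold change 0.00, adjusted p = 1). The 3 lower calls became 2 without any 1 tumor, 2 without gland 2 and 0 without gland 1, and the call of Elf5 held only without tumor 1.

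Genes of the basal layer and of smooth muscle contraction were lower in the KO tumors, many of them short of the threshold. Of 27 genes of the contractile apparatus, 6 fell (1.38% of all genes were called lower) and none rose, 26 had a negative log2 fold change, and the list median was -2.20. All 3 tumors were below both glands for 24 of the 27, against 12.5% of all genes. Cacna1c, a voltage-gated calcium channel, was at 7.17, 5.65 and 4.73 CPM in tumors and 28.1 and 43.8 CPM in glands (log2 fold change -2.61, SE 0.58, adjusted p = 0.0198). Lmod1, an actin nucleator of smooth muscle, was at 39.7, 28.0 and 21.7 CPM in tumors and 162 and 127 CPM in glands (log2 fold change -2.27, adjusted p = 0.0542). Tumor 1 was the highest of the tumors for both genes and still well below the glands. Trpc6 (log2 fold change -2.73), Mrvi1 (-2.50), Synm (-2.40) and Prkg1 (-2.30), the cGMP-dependent kinase of smooth muscle relaxation, were the other members that fell. Smooth muscle actin, Acta2, was at 1313, 454 and 299 CPM in tumors and 3872 and 2648 CPM in glands, with a log2 fold change of -2.24 (SE 0.68) and an adjusted p of 0.102. Myh11 (-2.48, adjusted p = 0.133), Kcnmb1 (-2.42, adjusted p = 0.141) and Myl9 (-1.98, adjusted p = 0.173) were likewise not DEGs. Tumors differed up to 4.61-fold among themselves for Myl9, at 214, 64.6 and 46.3 CPM against 519 and 333 CPM in glands. The number of called genes of this list was 12 without tumor 1, 1 without tumor 2, 0 without tumor 3, 0 without gland 1 and 1 without gland 2, and 15 by DESeq2.

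The CArG box, 10 letters that serum response factor binds, was found in the promoter window of 2 of 23 contractile genes (8.70%) and of 1.81% of all genes. Both matches are shown with the box in capitals, at chr2:156775293-156775322 for Myl9 and chr9:8544010-8544039 for Trpc6, both on the plus strand.
Myl9: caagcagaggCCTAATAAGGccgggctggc
Trpc6: cctttcgatcCCTTTAAAGGtggggatcgt
The first printed base is at -171 and -132 from the start. Of the genes with a match, Trpc6 fell and Myl9 did not pass the test.

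Among 20 genes of basal keratins and basal transcription factors, 3 fell and 1 rose, with a median of -1.06 (-1.63 without tumor 1), where 1.38% of all genes were called lower and 1.11% higher. Krt5 was at 396, 257 and 162 CPM in tumors and 1386 and 1258 CPM in glands (log2 fold change -2.28, adjusted p = 0.0981). Id4 (-2.18) and Snai2 (-1.76), transcription factors of basal and stem cells, also fell, and the tumors stayed below both glands for all 3. Krt14 (-0.99, adjusted p = 0.207) and Trp63 (-1.27, adjusted p = 0.309) were not DEGs. The exception was Igfbp5, an insulin-like growth factor binding protein, at 2022, 2082 and 1481 CPM in tumors and 78.1 and 126 CPM in glands. It rose 18.2-fold (log2 fold change 4.19, adjusted p = 0.0263), with the lowest tumor 11.7-fold above the highest gland. The 3 lower calls became 8 without tumor 1 and 0 without any other library. Igfbp5 stayed a DEG without any 1 tumor and was none without gland 1 or gland 2. The summed basal markers given above moved with these lists, with the lowest gland 1.60-fold above the highest tumor, and their part in the lower basal and contractile genes was not tested.

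Of 30 genes of laminins, basement membrane collagens and integrins, 13 fell and none rose, against 1.38% of all genes called lower. The list median was -0.72, and 21 of 30 had all tumors below both glands, as did 12.5% of all genes. The summed basal markers were also lower in every tumor, and their part in this list was not tested. Lama3 and Lamb3 encode laminin chains that anchor epithelial cells. Lamb3 was at 487, 437 and 399 CPM in tumors and 1352 and 1145 CPM in glands (log2 fold change -1.50, SE 0.28, adjusted p = 0.00621). Lama3 was at 423, 318 and 221 CPM in tumors and 1431 and 1115 CPM in glands (log2 fold change -1.99, adjusted p = 0.00976). Both fell without overlap. Type IV collagen forms the network of the basement membrane, and its chains Col4a1 (log2 fold change -2.03, adjusted p = 0.0240) and Col4a2 (-1.98, adjusted p = 0.00815) fell together. Col4a2 was at 138, 75.4 and 94.7 CPM in tumors and 431 and 381 CPM in glands. Col17a1, the hemidesmosomal collagen, was at 251, 164 and 95.2 CPM in tumors and 853 and 786 CPM in glands (log2 fold change -2.27, adjusted p = 0.0342). Perlecan (Hspg2, -1.62), nidogen (Nid1, -1.43), anchoring fibril collagen (Col7a1, -0.99), the laminin chains Lama1 (-1.91), Lama5 (-0.75) and Lamc1 (-0.75), and the integrins Itga5 (-1.64) and Itga9 (-2.23) made up the rest. The integrin of hemidesmosomes did not pass, with Itga6 at -0.09 (adjusted p = 0.922) and Itgb4 at -0.40 (adjusted p = 0.435). The 13 calls became 12 without tumor 1, 3 without tumor 2, 5 without tumor 3, 6 without gland 2 and 0 without gland 1. No member of 26 collagens and stromal matrix genes was called, with a median of -0.37. At an unadjusted p under 0.05 there were 8, against 10.6% of all genes, and DESeq2 called 1 higher and 2 lower.

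Genes of fatty acid and sterol synthesis split. Of 34 genes tested, 12 fell and 2, Scd1 and Thrsp, rose, and 23 had a negative log2 fold change, with a median of -0.62, and 21 had every tumor below both glands, against 1.38% of all genes called lower, 1.11% called higher and 12.5% with every tumor below. Lss, the lanosterol synthase, was at 77.5, 119 and 108 CPM in tumors and 252 and 238 CPM in glands (log2 fold change -1.27, SE 0.23, adjusted p = 0.00537). Sqle, squalene epoxidase, was at 145, 213 and 193 CPM in tumors and 352 and 324 CPM in glands (log2 fold change -0.88, SE 0.17, adjusted p = 0.00687). Fdft1 (-0.95) also fell in the sterol branch, while Hmgcs1 (-0.83, adjusted p = 0.114) did not pass. In the fatty acid branch, Acly, which makes cytosolic acetyl-CoA, was at 438, 513 and 455 CPM in tumors and 767 and 728 CPM in glands (log2 fold change -0.67, SE 0.13, adjusted p = 0.00880). Fasn, fatty acid synthase, was at 684, 1081 and 871 CPM in tumors and 1397 and 1535 CPM in glands (log2 fold change -0.74, SE 0.17, adjusted p = 0.0237). These 4 enzymes were 1.60- to 2.41-fold lower, and tumor 1 was the lowest library for each of them. Acss2 (-1.67), Fads1 (-0.98), Elovl6 (-0.96), Scd2 (-0.87) and the citrate carrier Slc25a1 (-0.82) also fell. Scd1 (chr19:44394455-44407879, minus strand), the stearoyl-CoA desaturase that makes oleate, was at 3124, 2863 and 2614 CPM in tumors and 839 and 806 CPM in glands. It rose 3.49-fold in the same libraries in which its paralog Scd2 fell (log2 fold change 1.80, SE 0.37, adjusted p = 0.0116). Scd1 and Scd2 share sequence, and how reads common to both were counted could affect either. Thrsp, the lipogenic regulator Spot14, was at 2.62, 8.76 and 15.2 CPM in tumors and 0.864 and 1.25 CPM in glands (log2 fold change 3.09, adjusted p = 0.0423). The transcription factor genes Srebf1 (0.45, adjusted p = 0.745) and Srebf2 (-0.60, adjusted p = 0.130) were not DEGs. The lower calls were 7 without any 1 tumor, 5 without gland 2 and 0 without gland 1, and the 2 higher calls were 1 without tumor 3 and 0 without either gland. The sterol regulatory element in its classical spelling was in 0 of 25 windows of this list and in 0.0999% of all genes, and the spelling TCACNCCAC was in 2 of 25 (8.00%) against 1.44%.

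**Figure D4:**
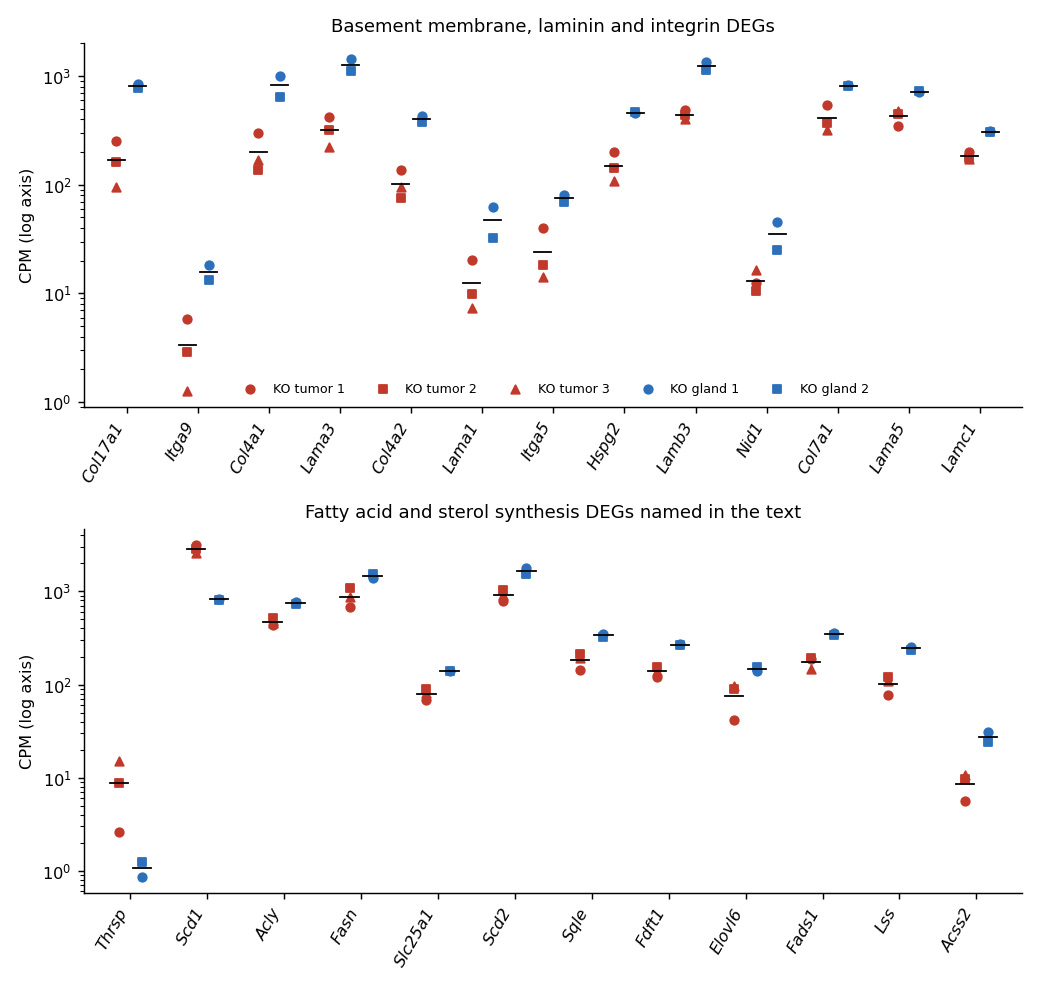
CPM values (log axis) of basement membrane DEGs (top) and of the lipid synthesis DEGs named in the text (bottom) in each KO tumor and KO gland of week 8, with 1 point per library and a black bar at each group mean. The tumors lie below the glands for each DEG except Scd1 and Thrsp, which lie above.

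Of 30 genes of fatty acid oxidation, 2 rose and none fell, where 1.11% of all genes were called higher and 1.38% lower. Cpt1a, the carnitine palmitoyltransferase that admits fatty acids to mitochondria, was at 76.8, 66.8 and 72.8 CPM in tumors and 29.5 and 41.9 CPM in glands (log2 fold change 1.02, adjusted p = 0.0928). Eci2, an isomerase of unsaturated fatty acids, had a log2 fold change of 0.63 (adjusted p = 0.0353). Neither was called without tumor 3, gland 1 or gland 2, and the list median was 0.26. Among 30 genes of glycolysis and the hypoxia response, Pfkp (0.84) and Ndrg1 (0.82) rose and Pfkfb4 (-0.997) fell, and the 2 higher calls were 4 without tumor 1, 1 without tumor 2 and 0 without any of the others. Among 25 amino acid transporters, Slc38a3 (3.36), Slc6a14 (3.05) and Slc43a2 (1.38) rose and Slc38a4 (-3.09), Slc7a8 (-2.45) and Slc1a4 (-0.60) fell. Slc6a14, which carries neutral and cationic amino acids, was at 3.34, 6.51 and 9.14 CPM in tumors and 0.491 and 1.11 CPM in glands (adjusted p = 0.0107). The 3 higher calls were 0 without gland 1 and 3 without gland 2, and the 3 lower calls were 1 without tumor 2, 0 without tumor 3, 0 without gland 1 and 1 without gland 2. Slc30a2, a zinc transporter of the lactating gland, rose with a log2 fold change of 2.92 (adjusted p = 0.00537), as did the monocarboxylate transporter Slc5a8 (1.40, adjusted p = 0.0415).

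Cell junction genes changed in both directions. Of 29 claudins, desmosomal proteins and gap junction proteins, 3 rose and 6 fell, where 1.11% of all genes were called higher and 1.38% lower. The list median was -0.06, or -0.16 with a gene set at its bound. Gjb2, the gap junction protein connexin 26, was at 221, 110 and 133 CPM in tumors and 28.7 and 31.8 CPM in glands (log2 fold change 2.36, SE 0.43, adjusted p = 0.00537). Gjb6 (2.15) and Cldn2 (3.94) rose at low levels, and Cldn2 had 0 reads in gland 2. Cldn6, a claudin of embryonic epithelium, was at 2.88, 7.14 and 5.38 CPM in tumors and 59.5 and 33.4 CPM in glands (log2 fold change -3.19, SE 0.53, adjusted p = 0.00292). The lowest gland was 4.68-fold above the highest tumor. Dsp (-1.02), Pkp1 (-1.28) and Dsc3 (-2.29) of the desmosome were among the others that fell. The 6 lower calls became 2 without tumor 2, 3 without tumor 3, 0 without gland 1 and 2 without gland 2, and the 3 higher calls 2 without tumor 3, 0 without gland 1 and 1 without gland 2.

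Some secreted patterning factors and guidance genes fell. Of 38 Wnt ligands, receptors and antagonists, 6 fell and none rose, with a median of -0.48 (-0.52 with a gene set at its bound), where 1.38% of all genes were called lower. The median was -0.24 without tumor 1 and -0.20 without gland 1. Wnt10a, a ligand of ectodermal organs, was at 8.39, 10.9 and 7.47 CPM in tumors and 61.5 and 49.1 CPM in glands (log2 fold change -2.63, SE 0.47, adjusted p = 0.00536). The lowest gland was 4.52-fold above the highest tumor. Dkk2, a Wnt antagonist, was at 2.22, 2.77 and 2.31 CPM in tumors and 31.0 and 10.5 CPM in glands (log2 fold change -3.10, adjusted p = 0.0177). Rspo1 (-2.53), Wnt4 (-2.30), Wnt11 (-2.09) and the receptor Fzd2 (-0.84) were the others. Of 40 axon guidance genes, 7 fell and none rose, with a median of -0.25 (-0.15 without gland 1). The receptor Robo1 was at 6.24, 8.70 and 5.42 CPM in tumors and 51.2 and 36.6 CPM in glands (log2 fold change -2.69, adjusted p = 0.0325). Its ligands Slit2 (-1.67) and Slit3 (-2.32) fell as well, as did Ephb2 (-2.08, adjusted p = 0.00678), Plxna2 (-1.67), Nrp2 (-1.54) and Efnb1 (-0.87). Of 28 TGF-beta and BMP genes, Bmp3 (-3.35), Bmp7 (-2.72) and the receptor Bmpr1b (-1.56) fell and Tgfb3 (1.39) rose. The median of this list was 0.22 with 17 positive, where 1.11% of all genes were called higher and 1.38% lower. Every tumor was above both glands for 10 of the 28 and below both for 5, against 15.0% and 12.5% of all genes. Bmp7 was at 10.9, 7.75 and 4.63 CPM in tumors and 56.4 and 45.8 CPM in glands (adjusted p = 0.0135). Without gland 1 none of the Wnt, guidance, TGF-beta or BMP genes was called, and without gland 2 there were 4 Wnt genes, 2 guidance genes and 3 lower TGF-beta or BMP genes. Wnt calls were 3 and 4 and guidance calls 2 and 3 without tumor 2 and tumor 3, and guidance calls were 4 without tumor 1. The higher calls among TGF-beta and BMP genes were 3 without tumor 1 and 0 without tumor 2 or tumor 3.

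Members of other lists also passed, where 1.11% of all genes were called higher and 1.38% lower. A gene in more than 1 list counts in each. Calls were 4 of 20 genes of epithelial-mesenchymal transition, 2 of 20 of the BCL2 family and 2 of 29 chemokines and cytokines. There were 2 of 19 imprinted growth genes and 2 of 17 genes of the IGF axis. Lists with 1 call held 20 Notch, 27 ErbB, 15 D cyclin, 25 matrix protease, 29 apoptosis and 28 Hox genes. The higher members named here were Ccl20, a chemokine for dendritic cells (3.42, adjusted p = 0.00310), Notch4 (1.72), Grb10 (1.33), Etv5 (0.85), Bcl2 (0.73) and Zeb2 (2.35). The lower ones were the D-type cyclin Ccnd2 (-1.97), the chemokine Cxcl12 (-2.35), the receptor Axl (-1.44), the membrane protease Mmp14 (-1.31), the IGF receptor Igf1r (-0.76), Bok (-1.66), Tnfsf10 (-1.53), Ndn (-2.37) and Hoxc5 (-4.42). Igf1r was at 76.5, 89.2 and 76.9 CPM in tumors and 119 and 154 CPM in glands, a difference with an SE of 0.14 (adjusted p = 0.00678). Of these 15 calls, 13 held without tumor 1, 8 without tumor 2, 6 without tumor 3, 3 without gland 1 and 5 without gland 2. Ccl20 and Hoxc5 were called in each of those fits and Ccnd2 in none, while Cxcl12, Axl and Ndn were called only in the fit without tumor 1. Cdh19 (4.24), a Schwann cell marker, rose, while the summed nerve or Schwann markers overlapped at 347 to 511 CPM in tumors and 423 to 486 CPM in glands. Most of that sum was Mbp, Sox10, Pmp22 and Ncam1, and S100b, another Schwann cell marker, had 5, 5 and 75 reads in tumors and 0 and 1 in glands (adjusted p = 0.322). Pdpn (-1.66), counted as a fibroblast marker here and also expressed by basal cells, fell and was the only one of the 10 fibroblast markers with a negative value. The other 9 were positive without a DEG, the list median was 0.95, and 5 of the 10 had every tumor above both glands, against 15.0% of all genes. Of the 10, 2 had an unadjusted p under 0.05 (10.6% of all genes), and DESeq2 called 1 higher and 1 lower. Summed without Pdpn, these 9 markers were at 43.3, 45.4 and 16.7 CPM in tumors 1, 2 and 3 and 18.9 and 13.2 CPM in glands 1 and 2. In edgeR's test 0 genes were called among 22 immediate early genes, 23 ATF4 targets, 19 genes of antigen presentation and 35 genes of DNA repair. At an unadjusted p under 0.05 there were 2, 3, 0 and 1 in this order, and DESeq2 called 1, 1, 0 and 0. Over all 36527 genes, 10.6% had an unadjusted p under 0.05, and DESeq2 called 1695.

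Beyond the lists, the protein-coding genes with the largest rises and at least 5 CPM in tumors included Sparcl1, Slc6a2, Dpp4 and Tmc5. Sparcl1, a matricellular protein of the SPARC family, was at 96.6, 15.7 and 24.0 CPM in tumors and 0.471 and 0.241 CPM in glands (log2 fold change 6.86, SE 1.5, adjusted p = 0.0167). Slc6a2, the noradrenaline transporter, was at 11.2, 10.0 and 16.3 CPM in tumors and 0.393 and 0.529 CPM in glands (log2 fold change 4.80, adjusted p = 0.00708). Tumor 1 was the highest by 4.02-fold for Sparcl1, and the tumors were close together for Slc6a2. Dpp4, a membrane peptidase, was at 5.09, 5.57 and 4.53 CPM in tumors and 0.177 and 0.192 CPM in glands (log2 fold change 4.78, adjusted p = 0.00678). Tmc5 had a log2 fold change of 4.54 (adjusted p = 0.00204).

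Among protein-coding genes with at least 5 CPM in glands, the largest fall was that of Cdh13 (chr8:118283733-119324921, plus strand), which encodes the lipid-anchored T-cadherin. It was at 1.26, 2.52 and 1.09 CPM in tumors and 23 and 22.5 CPM in glands. The lowest gland was 8.92-fold above the highest tumor, and the log2 fold change was -3.81 (SE 0.62, adjusted p = 0.00266). Reln, the secreted glycoprotein of neuronal migration, was at 1.88, 4.39 and 2.97 CPM in tumors and 36.7 and 20.1 CPM in glands (log2 fold change -3.21, adjusted p = 0.0126). Calcb, a calcitonin gene-related peptide, was at 1.2, 0.714 and 0.675 CPM in tumors and 16.3 and 4.38 CPM in glands (log2 fold change -3.57, adjusted p = 0.00193). Glands differed 3.71-fold from each other for Calcb and 1.02-fold for Cdh13. Pcp4 (-3.68), Diras2 (-3.27), Ptn (-3.20), Spon2 (-3.16), Gm266 (-3.15) and Popdc2 (-3.10) were the other genes of this rule outside the lists. Gland 1 was the higher gland for Pcp4, Ptn and Spon2 and the lower for Diras2.

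Among long noncoding RNAs with at least 1 CPM, C530043A13Rik was at 23.3, 22.3 and 11.6 CPM in tumors and 0.766 and 1.11 CPM in glands (log2 fold change 4.39, SE 0.95, adjusted p = 0.0157). Gm45589 was at 7.75, 1.91 and 1.30 CPM in tumors and 0.137 and 0.192 CPM in glands (log2 fold change 4.53, adjusted p = 0.0124). All tumors exceeded both glands for the 2, and tumor 1 led for Gm45589. Ttc39aos1 (3.30), Gm13293 (3.29) and Gm29680 (3.25) also rose. AW112010 was at 1.27, 1.16 and 0.916 CPM in tumors and 17.4 and 5.39 CPM in glands (log2 fold change -3.35, adjusted p = 0.0211). Gm47662 (-3.58), Gm17396 (-3.16), Gm47163 (-2.89) and Gm20560 (-2.83) fell as well. Whether the counting used strand is not given in the sources used here, so reads of the antisense genes Ttc39aos1 and Gm20560 and of an overlapping partner could not be told apart.

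Cell cycle genes had higher values in tumors and did not pass the test. Of 45 G2/M genes none was called, while all 45 had a positive log2 fold change with a median of 0.99, and 42 had every tumor above both glands. Over all genes, 52.9% were positive and 15.0% had every tumor above. At an unadjusted p under 0.05 there was 1, against 10.6% of all genes, and DESeq2 called 0. Mki67, the proliferation antigen Ki-67, was at 159, 116 and 114 CPM in tumors and 60.8 and 53.5 CPM in glands (log2 fold change 1.18, SE 0.60, adjusted p = 0.511). Cdk1, the mitotic kinase, was at 78.6, 42.8 and 40.6 CPM in tumors and 28.8 and 18.8 CPM in glands (log2 fold change 1.18, adjusted p = 0.558). The groups did not overlap for either gene, and tumor 1 was the highest library for 44 of the 45 G2/M genes. The cyclin partners of Cdk1, Ccnb1 (1.09, adjusted p = 0.629) and Ccnb2 (1.38, adjusted p = 0.377), and the S and G2 cyclin Ccna2 (0.97, adjusted p = 0.668) had similar values. Without tumor 1 the G2/M median was 0.59 and all 45 values stayed positive. Of 40 S phase genes none was called by edgeR or DESeq2, 0 had an unadjusted p under 0.05, 39 were positive with a median of 0.26, and without tumor 1 the median was 0.10 with 25 positive. It was 0.15 with 30 positive without gland 2, 0.41 without tumor 2 and 0.44 without gland 1.

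Interferon-stimulated genes were highest in tumor 1 for most members. None of 29 was called in edgeR's test (8 at an unadjusted p under 0.05, 6 higher by DESeq2), 28 had a positive log2 fold change with a median of 1.30, and tumor 1 was the highest library for 25 of them. In 10 of 29 every tumor lay above both glands (15.0% of all genes). Over all genes, 10.6% had an unadjusted p under 0.05. Isg15, a ubiquitin-like protein, was at 19.7, 1.41 and 1.09 CPM in tumors and 1.18 and 0.674 CPM in glands (adjusted p = 0.379). Irf7, a regulator of interferon genes, was at 24.6, 3.42 and 4.36 CPM in tumors and 3.42 and 2.74 CPM in glands (adjusted p = 0.587). Tumors 2 and 3 lay at or near the gland levels for both. Zbp1, a sensor of Z-form nucleic acids named here after its values were seen, was at 22.7, 4.33 and 4.46 CPM in tumors and 2.08 and 1.83 CPM in glands (log2 fold change 2.42, adjusted p = 0.165), with no overlap. Without tumor 1 the median was 0.22 and 17 of 29 were positive.

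**Figure D5:**
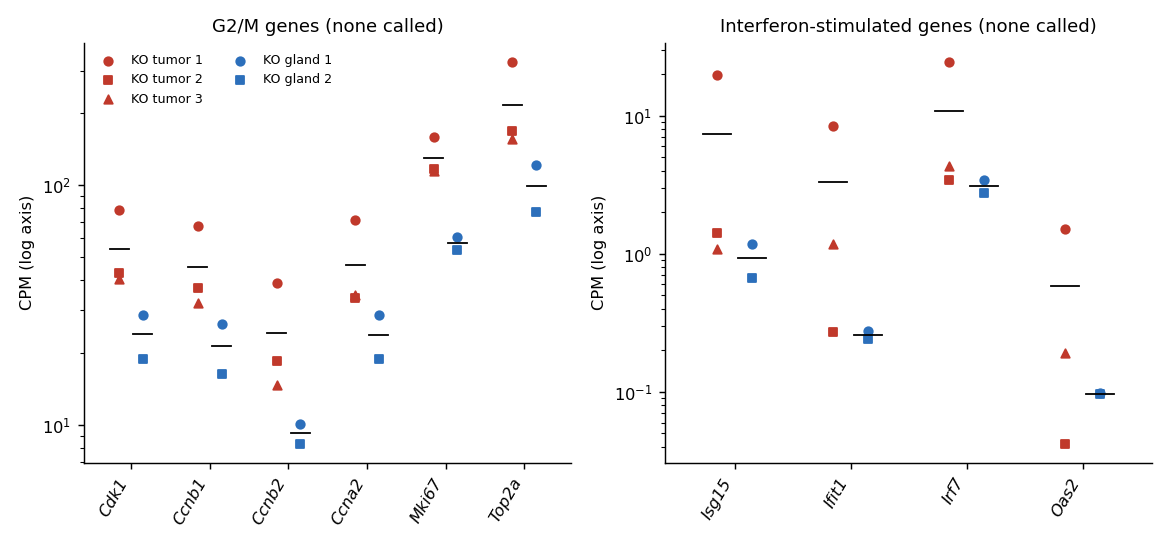
CPM values (log axis) of cell cycle genes and interferon-stimulated genes in each KO tumor and KO gland of week 8, with 1 point per library and a black bar at each group mean. Tumor 1 is the highest point for the genes shown, and for Isg15 it is at 19.7 CPM while the other 4 libraries are between 0.674 and 1.41 CPM.

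Pthlh, the deleted gene, is counted over its whole length, so reads outside the floxed part stay and the value does not check the deletion. Pthlh (chr6:147252101-147264183, minus strand) was at 1.89, 1.51 and 1.64 CPM in tumors and 3.16 and 2.79 CPM in glands (log2 fold change -0.82, SE 0.42, adjusted p = 0.512). The tumors were below both glands, and the difference did not pass the test. Its receptor Pth1r had 4, 6 and 6 reads in tumors and 3 and 0 in glands, a ratio of 2.21 with an exact 95% counting interval of 0.632 to 11.8. Of 20 genes of PTHrP, its receptor and the cAMP response, only Adcy3, an adenylyl cyclase, was called (-1.62, adjusted p = 0.0110), where 1.38% of all genes were called lower. The call was lost without gland 1, and DESeq2 called 2 of the 20. The lncRNA Gm50337 (chr19:44419610-44437886, plus strand), which lies near Scd1, was at 0.856, 0.945 and 1.23 CPM in tumors and 0.275 and 0.385 CPM in glands. All tumors exceeded both glands on 72, 45 and 51 reads against 14 and 8, and the log2 fold change of 1.64 (SE 0.51) had an adjusted p of 0.113. H19 (-0.63, adjusted p = 0.888), Foxd2os (1.69, adjusted p = 0.567) and C130071C03Rik (0.05, adjusted p = 1) were not DEGs.

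The tumor effect at week 8 in KO mice was then compared with that in PTHrP WT mice and in older KO mice, as a difference of log2 fold changes in the same edgeR model. WT mice were Pthrp wt/wt; Cre+; mTmG with or without PyMT-MMTV, and each of these groups held 3 tumors and 2 glands. Against WT mice of week 6, which the study matched as hyperplasia, 0 genes were called (2181 at an unadjusted p under 0.05, or 5.97% of genes, and 27 by DESeq2). Against WT mice of week 8, 4 genes were called (0.011%), with 2138 at an unadjusted p under 0.05 (5.85%) and 55 by DESeq2. Against KO mice of week 10, 0 genes were called (1771 at an unadjusted p under 0.05, or 4.85%, and 7 by DESeq2). None of the acute-phase, milk, basement membrane or lipid genes described above was among these calls.

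Group means are given here for tumors in the case of Saa1 and for glands in the case of Saa3. Saa1 had a mean of 498 CPM in KO tumors of week 8, 398 CPM in WT tumors of week 6, 839 CPM in WT tumors of week 8 and 1613 CPM in KO tumors of week 10. Saa3 was at a mean of 0.252 CPM in KO glands of week 8, 10.1 CPM in WT glands of week 6, 60.2 CPM in WT glands of week 8 and 2.52 CPM in KO glands of week 10. The difference of its tumor effect from that of WT mice of week 8 was 7.53 on the log2 scale and did not pass the test (adjusted p = 0.70). The acute-phase list had median differences of 0.25, -0.40 and -0.18 from WT mice of weeks 6 and 8 and KO mice of week 10. Milk genes had -0.335, -1.64 and -0.892 and interferon-stimulated genes 2.06, 2.24 and 1.54 in the same order. Fatty acid and sterol genes had a median difference of -0.64 from WT mice of week 6, -0.31 from WT mice of week 8 and -0.25 from KO mice of week 10. The G2/M genes had a median difference of -1.03 from WT mice of week 6, 0.37 from WT mice of week 8 and 1.34 from KO mice of week 10. These medians over a list are descriptions, and the KO libraries of week 8 are the same in all 3 differences.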

How the data were processed

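GFP+ cells were sorted from 33 mice, and rRNA-depleted RNA was sequenced as stranded libraries. The authors aligned reads with HISAT to the Gencode M16 transcriptome and GRCm38, removed duplicates with Picard 1.128, counted per gene with HTSeq and deposited raw counts. The authors also deposited normalized signal, which is counts divided by 1 size factor per library, used here only for an alternative. All of its values became whole reads (tolerance 0.01) once the factor was undone. Of 55598 count rows, 111 of spike-in, reporter and transgene sequences (0.0778% of reads) were left out of tests. Whether the counting used strand is not given in the sources used here, and the table holds identifiers later than Gencode M16.

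Counts were tested with edgeR 4.0.16 in R 4.3.3 (TMM, quasi-likelihood F test), 1 coefficient per genotype, tissue and week with all 33 libraries in the fit and 36527 genes of 10 or more summed reads, with Benjamini-Hochberg adjustment. DESeq2 1.42.0, which the study names, was an alternative. The SE of a log2 fold change is its size over the root of F, and CPM uses TMM-scaled library sizes. The script was tested on simulated data. Depths and rRNA shares are given per library above, and intervals cover counting error only. No replicate pair was a duplicate (chi-square per degree of freedom at least 193.7). Members and lists were chosen with earlier results of these data known. Named genes were the 12 higher and 12 lower protein-coding DEGs of largest fold change (at least 5 CPM, no overlap), 5 and 5 such lncRNAs (at least 1 CPM), DEGs of the lists with up to 4 defining members that did not pass, and genes of the study's questions. Some genes of these rules are not reported here. P-values measure the spread between mice, since each library is 1 mouse.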

Additional observations from a re-analysis of the deposited data

Results flagged for a closer look

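The tumor effect of 4 genes in KO mice of week 8 differed from that in WT mice of week 8 by the test of the difference itself, each with an adjusted p of 0.0811 in edgeR's quasi-likelihood test. These genes were named after their values were seen. With the log10 rRNA share as a covariate, 1 gene was called instead of 4. Col5a3, a fibrillar collagen chain, was at 11.1, 5.15 and 3.21 CPM in KO tumors and 9.70 and 6.45 CPM in KO glands. Its means in WT mice of week 8 were 5.04 CPM in tumors and 138 CPM in glands, and the difference of log2 fold changes was 4.46 (SE 0.80). Ntn1, the guidance factor netrin 1, was at 273, 334 and 344 CPM in KO tumors and 217 and 247 CPM in KO glands. Its WT means of week 8 were 468 CPM in tumors and 115 CPM in glands, with a difference of -1.57 (SE 0.27). Zeb2, a transcription factor of epithelial-mesenchymal transition, was at 4.30, 2.63 and 5.86 CPM in KO tumors and 0.805 and 0.866 CPM in KO glands. Its WT means of week 8 were 2.45 CPM in tumors and 9.56 CPM in glands, with a difference of 4.32 (SE 0.77). Gm38223, a gene model still to be checked experimentally, was at 0.178, 0.189 and 0.217 CPM in KO tumors and 0 in both KO glands, at least 4.56-fold higher against a floor of 3 reads over both glands together. Its WT means were 0.0820 and 0.181 CPM, and the fitted difference of 7.51 depends on the prior count. Other lists had high values in the same difference, with a median of 4.67 over fibroblast markers, 3.01 over macrophage markers, 2.54 over pericyte markers and 2.54 over collagens and stromal matrix genes, and their part in the values of Col5a3 and Zeb2 was not tested. Without KO tumor 1, KO tumor 2 or KO gland 2 the number of such genes was 0, without KO gland 1 it was 2 and without KO tumor 3 it was 3.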

How the results depend on the processing

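The count of DEGs changed with the processing. Against 909 (405 higher, 504 lower), DESeq2 gave 1695 (775, 920), no filter on low counts 1613 (708, 905) and a fit of the compared groups alone 1416 (615, 801), and leaving out each library gave 41 to 952 (21 to 395 higher, 20 to 557 lower). At a fold change over 2 the numbers were 710, 1280 by DESeq2, 1251 without the filter and 40 to 747 with a library left out. Size factors of DESeq2, filterByExpr, removal of the rRNA rows, the rRNA share as a covariate and reads from the normalized table stayed within 1.5 times. In 2 alternatives chosen after seeing the data, only the 2 libraries with rRNA under 1% gave 19 DEGs (15, 4; 19 at fold 2) and only the 3 over 1% gave 36 (16, 20; 34 at fold 2). Genes of any list that were called were 114, with 185 by DESeq2, 211 without the filter, 186 in the compared groups alone, 3 and 6 in those 2 alternatives and 6 to 126 with a library left out. The share of higher calls was 44.6%, with 59.4% without tumor 2, 55.7% without tumor 3 and 78.9% in the 2 low-rRNA libraries. Differences from WT mice of week 6 were 27 by DESeq2, 20 without the filter and 0 to 1 with a library left out. Those from WT mice of week 8 were 55, 189, 47 in the compared groups alone, 1 with the rRNA covariate and 0 to 3. Those from KO mice of week 10 were 7, 11 and 0 to 1. Replicate numbers could be paired in 2 pairs only, where deviations from the group means had correlations of 0.481 and 0.518 over 13051 genes. With 2 glands these deviations mirror each other, and replicate 1 was the low-rRNA library of both groups. The correlations therefore cannot decide whether the numbers pair mice, and the numbers are not shown to do so. The replicate block gave 415 DEGs (230, 185; 55.4% higher; 336 at fold 2), 54 list genes and 2 and 0 differences from WT mice of weeks 6 and 8. Values that changed sign were Pth1r at -0.25 in the 2 low-rRNA libraries, C130071C03Rik at -0.091 under the replicate block, -0.54 to 5.52 with a library left out and -1.64 in the low-rRNA libraries, and the log10 rRNA share difference, from -1.45 to 1.40 with a library left out. Of the list medians given above, that of collagens and stromal matrix (-0.37) was 0.07 in the 2 low-rRNA libraries, -0.77 without tumor 1, -0.18 without tumor 2 or tumor 3 and -0.22 without gland 1, that of Wnt genes (-0.48) was -0.24 without tumor 1 and -0.20 without gland 1, and that of junction genes (-0.06) was 0.01 without tumor 2 and -0.10 to -0.02 without tumor 1, tumor 3 or gland 1. That of interferon-stimulated genes (1.30) was 2.52 in the 2 low-rRNA libraries, 0.24 in the 3 over 1% and 0.86 with the rRNA covariate. The cause of these changes was not tested. With 3 mice against 2, most calls were lost without either gland (41 and 323 DEGs left), and genes with few reads in both groups could not be compared at this depth.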
